A study of Mus musculus with 7 samples.

Results

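Transcripts of 68 heat shock protein and DnaJ cochaperone genes were measured in grafts of a mouse melanoma, out of 21878 genes in the count table. Members were taken by name: gene symbols of the Hspa, Hspb, Hspd, Hspe, Hsph and Hsp90 series and of the Dnaja, Dnajb and Dnajc series, with at least 10 counts summed over all libraries. Of 72 matching genes, 4 had fewer counts and were left out (Dnajb3, Dnajb7, Dnajb8 and Dnajc5g). By where their proteins mainly work, 37 members were assigned to the cytosol and nucleus, 14 to the endoplasmic reticulum (ER), 9 to the mitochondrion and 8 to other or uncertain sites.

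The grafts were B16F10 cells, a pigmented melanoma line of C57BL/6 origin, grown in female C57BL/6J mice. In the Zelnorm group, 4 libraries came from tumours of mice dosed orally with 1.25 mg/kg Zelnorm at intervals of 2 days once tumours could be felt. Zelnorm contains tegaserod, which partially activates a gut serotonin receptor. In the NC group, 3 libraries came from control tumours, and the labels do not say whether a vehicle was given. The mice kept their own immune system and stroma, so each library is a mixture of melanoma and host RNA, and fewer cells of a type cannot be told apart from less RNA per cell. Whether every library stems from a separate mouse is not stated, so p-values measure the spread between libraries, which may be partly technical. Libraries are named by their table columns and are given below in the order MBZ_9, MBZ_11, MBZ_13 and MBZ_15 for Zelnorm, then NC_5, NC_6 and NC_10. The labels do not explain the letters MBZ, and the counts cannot show what agent the mice received.

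Chaperones bind unfolded or partly folded proteins and keep them from aggregating. Hsp70 proteins do so in cycles of ATP hydrolysis. J proteins, named after bacterial DnaJ, start the cycle by delivering the client and triggering hydrolysis, and Hsp110 proteins help to end it by exchanging the nucleotide. Hsp90 proteins take over clients close to their final fold, among them kinases and steroid receptors, and small heat shock proteins hold unfolded clients without ATP. Each compartment has its own set: Hspa8 and its inducible relatives in the cytosol, Hspa5 (BiP) and Hsp90b1 (GRP94) in the ER, and Hspa9 (mortalin) with the Hspd1 and Hspe1 chaperonin (Hsp60 and Hsp10) in mitochondria. Cytosolic chaperone genes are induced by the transcription factor HSF1 at heat shock elements, and ER chaperone genes by ATF6 and XBP1 at ER stress elements.

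Promoter windows, from 250 bases before to 50 after each annotated transcript start, were taken from RefSeq (build GRCm38.p6) and matched to 54 of the 68 members. The windows for Hspa13, Dnajc22, Hspa9, Dnajc30, Dnajc2, Dnajc5, Dnajc12, Hsp90ab1, Hsp90aa1, Hspa8, Dnajc11, Dnajc18, Hspb2 and Dnajc5b were not used here. A pair of inverted heat shock units was searched as GAANNTTC or TTCNNGAA, a run of 3 units as either pair continued, after any 2 bases, by another alternating unit (GAA or TTC), and the ER stress element as CCAAT, any 9 bases, then CCACG. All were searched on both strands. Every run of 3 units also holds the pair. The pair was present in 15 of 54 members (27.8%), against 15.1% of all 32851 windows and 16.97% of all genes with a window. The run of 3 was present in 4 members (7.41%), Dnajb6, Hsph1, Hspd1 and Hspe1, against 0.603% of windows and 0.662% of all genes with a window. The ER stress element was present in 3 members (5.56%), Hspa5, Hsp90b1 and Dnajc3, against 0.119% of windows and 0.137% of all genes with a window. A match describes letters in the window and not a bound site. In GENCODE M21 (GRCm38), exons of 24 members overlap an exon of a gene on the opposite strand and those of 9 overlap one on the same strand, 6 of them both, which leaves these counts uncertain since no source says how the counting treated strand.

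The stretches below show heat shock units, in capitals, at 4 of the 5 genes with the motif that were higher in Zelnorm libraries at an unadjusted p under 0.05, and at Hspe1, which shares its promoter region with Hspd1. They are printed in the direction of transcription, from 5′ to 3′, and the Dnajb4 stretch lies before a start within the gene.
Hspa1a, chr17:34972187-34972326, minus strand, bases -170 to -31 from the start: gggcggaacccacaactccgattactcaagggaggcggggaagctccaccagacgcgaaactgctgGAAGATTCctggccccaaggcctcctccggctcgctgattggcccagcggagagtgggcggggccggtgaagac
Dnajb4, chr3:152193846-152193985, minus strand, bases -140 to -1 from the start: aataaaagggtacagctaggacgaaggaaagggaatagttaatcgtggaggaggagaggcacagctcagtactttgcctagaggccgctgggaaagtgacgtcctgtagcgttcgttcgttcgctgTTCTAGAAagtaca
Hsph1, chr5:149636351-149636380, minus strand, bases -44 to -15 from the start: gggtagaatctTTCTCGAAggctcgagaag
Hspb1, chr5:135887746-135887885, plus strand, bases -173 to -34 from the start: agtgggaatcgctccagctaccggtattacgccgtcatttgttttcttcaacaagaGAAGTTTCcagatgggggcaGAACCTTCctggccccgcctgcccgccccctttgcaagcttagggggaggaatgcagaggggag
Hspe1, chr1:55088053-55088082, plus strand, bases -95 to -66 from the start: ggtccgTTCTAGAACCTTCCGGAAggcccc

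The following stretches show the ER stress elements, the outer boxes in capitals, of the 3 ER members that hold one. Hsp90b1 carries 1 in each orientation.
Hspa5, chr2:34772020-34772049, plus strand, bases -70 to -41 from the start: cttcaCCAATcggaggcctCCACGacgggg
Hsp90b1, chr10:86705525-86705664, minus strand, bases -220 to -81 from the start: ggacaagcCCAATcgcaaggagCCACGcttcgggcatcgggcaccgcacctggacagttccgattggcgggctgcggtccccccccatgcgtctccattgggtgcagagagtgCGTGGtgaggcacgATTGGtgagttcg
Dnajc3, chr14:118937767-118937906, plus strand, bases -165 to -26 from the start: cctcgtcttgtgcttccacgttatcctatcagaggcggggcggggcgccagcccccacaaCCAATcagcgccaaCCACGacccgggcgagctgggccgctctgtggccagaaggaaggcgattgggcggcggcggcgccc

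Depth was similar across libraries, with 16903598 to 19666598 counts in Zelnorm and 18079258 to 19547390 in NC libraries. A floor of 3 counts corresponds to 0.153 to 0.177 CPM (the usual depth-scaled read count, here by library size and TMM factor), which covers counting error only. Markers of pigment cells were present in every library and summed to 28297 to 30563 CPM in Zelnorm and 26128 to 29567 CPM in NC libraries, as the label of the graft says. Markers of skeletal muscle summed to 7.65 to 389.6 CPM in Zelnorm and 6.27 to 44.7 CPM in NC libraries. Pan-leukocyte markers summed to 726 to 1021 CPM in Zelnorm and 573 to 791 CPM in NC libraries, and fibroblast markers to 1212 to 2412 CPM in Zelnorm and 679.7 to 1771 CPM in NC libraries. Of 12997 genes tested with edgeR's quasi-likelihood test, 4 (0.0308%) passed an adjusted p of 0.05.

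Of the 68 members, 66 passed the filter on low counts and were tested, and none passed an adjusted p of 0.05. The smallest adjusted p, from edgeR, was 0.229 (Dnajb14). At an unadjusted p under 0.05, 6 members were higher in Zelnorm (9.09% of 66, against 6.94% of all genes) and 3 were lower (4.55%, against 3.38%). DESeq2 and limma voom also gave 0 members at an adjusted p of 0.05. Over the whole table they called 206 of 16920 and 3 of 12997 genes. The median log2 fold change, Zelnorm over NC, was 0.032 over the tested members and 0.00036 over all genes tested, and 38 members were higher and 28 lower. Zelnorm values all exceeded the NC values for 2 members (3.03%, against 5.33% of all genes) and were all below them for 3 members (4.55%, against 4.27%). The 2 not tested were Dnajc5b and Hspb3, both close to the detection floor. All named values below are therefore sizes with their errors and not calls.

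Of 35 tested cytosolic members, 26 were higher in Zelnorm and 9 lower, with a median log2 fold change of 0.042. Of 14 ER members, 5 were higher and 9 lower, with a median of -0.023, and of 9 mitochondrial members, 2 were higher and 7 lower, with a median of -0.074. Over all genes tested, 49.8% were lower. All 6 members higher at an unadjusted p under 0.05 were cytosolic (17.1% of 35, against 6.94% of all genes). The 3 lower ones were an ER, a mitochondrial and an unassigned gene. These are 7.14%, 11.1% and 12.5% of their sets, against 3.38% of all genes, and each share rests on 1 gene. The difference between compartments was not itself tested. Single members had an SE of at least 0.051 on the log2 scale. The ER median turned to at most 0.013 with the muscle or leukocyte level as a covariate and without NC_6, while the cytosolic and mitochondrial medians kept their sign in all 15 alternatives.

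**Figure D1:**
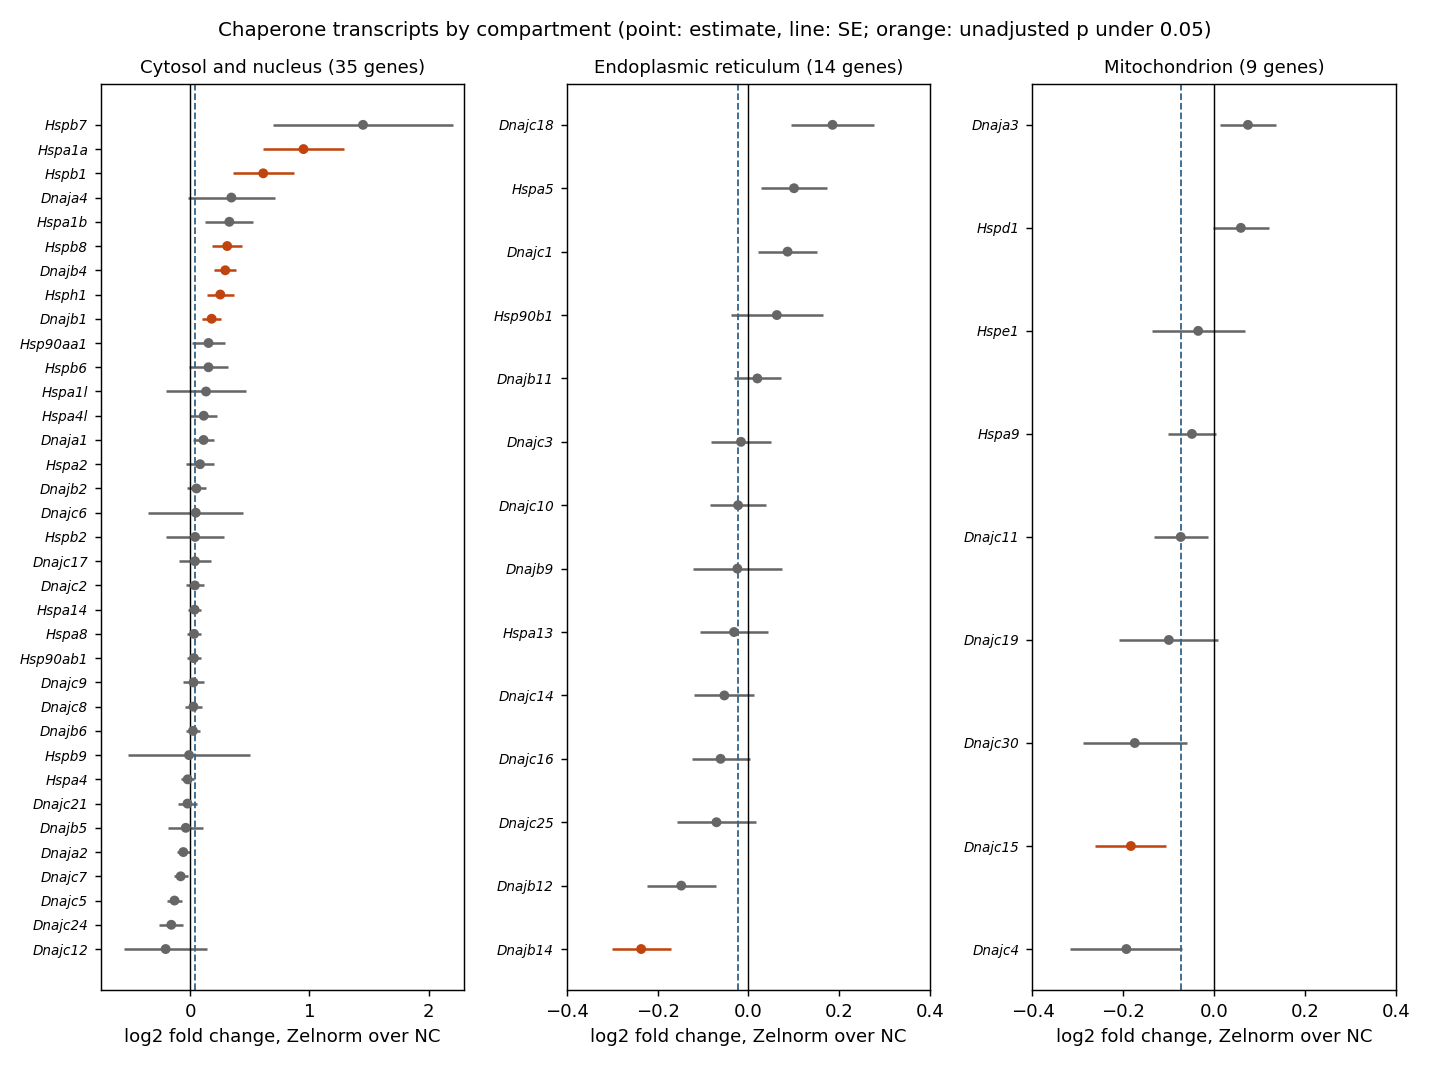
Log2 fold change, Zelnorm over NC (horizontal axis), with its SE, for each tested cytosolic, ER and mitochondrial member, from 4 Zelnorm and 3 NC libraries; the left panel has a wider axis, and the dashed line is the median of the panel (0.042, -0.023 and -0.074). Orange marks an unadjusted edgeR p under 0.05. The largest estimates are cytosolic, and Hspb7 has the widest error.

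Within the cytosol, the 17 tested members that are not J proteins had 15 higher and 2 lower, with a median of 0.13. The 18 tested cytosolic J proteins had 11 higher and 7 lower, with a median of 0.028. Of 11 ER J proteins, 3 were higher and 8 lower, with a median of -0.024. Of 6 mitochondrial J proteins, 1 was higher and 5 lower, with a median of -0.14. J proteins were a larger part of the ER and mitochondrial sets, so compartment and protein class are mixed in the compartment medians.

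Hspa8, the constitutive Hsp70 of the cytosol, had 3161, 3059, 3008.5 and 3011 CPM in Zelnorm libraries, against 2807, 3215 and 2950.0 CPM in NC libraries. The groups overlapped, with log2 fold change 0.033 ± 0.059 (SE). Hsp90ab1, the constitutive cytosolic Hsp90, had 3249.6, 3619, 3453 and 3569 CPM in Zelnorm libraries, against 3383, 3462 and 3344 CPM in NC libraries, a log2 fold change of 0.032 ± 0.055. Per kilobase of exon (GENCODE M21), Hsp90ab1 was the most abundant member at 1158 ± 54.7 CPM per kb in Zelnorm and 1133 ± 20.04 in NC libraries (SD, n = 4 and 3), and Hspa8 came second at 711 ± 16.6 and 695 ± 48.2.

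Hsp90aa1, the stress-inducible cytosolic Hsp90, had 1462, 1598, 2157 and 1865 CPM in Zelnorm libraries, against 1284, 1795 and 1693 CPM in NC libraries. It was the most variable of the abundant cytosolic members, with a pooled within-group SD of 0.25 on the log2 CPM scale, and its log2 fold change was 0.15 ± 0.14. That estimate was 0.046 without MBZ_13, its highest library, and 0.26 with the summed skeletal muscle markers as a covariate. The 6 most abundant genes by CPM (Hsp90ab1, Hspa8, Hsp90aa1, Hspd1, Hsp90b1 and Hspa5) held between 71.4% and 73.3% of all members' CPM in every library.

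Hspa1a, an inducible Hsp70 kept low in unstressed cells, was low in these tumours: 2.07, 3.38, 2.03 and 2.54 CPM in Zelnorm libraries, against 0.758, 1.28 and 1.82 CPM in NC libraries. These values rest on 36, 57, 36 and 50 counts in Zelnorm and 14, 23 and 36 counts in NC libraries. The groups did not overlap, but MBZ_13 and NC_10 were close, with equal raw counts. The log2 fold change was 0.95 ± 0.34 (edgeR adjusted p = 0.364). Without NC_5, the lowest library, it was 0.68. Hspa1a lies on chr17:34969190-34972156, minus strand (GRCm38), and an exon of Gm20481 on the other strand overlaps it.

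Its neighbour Hspa1b on the same chromosome encodes nearly the same protein. The longest open reading frames of the pair agree in 98.1% of bases, so the authors' counting could split reads between them and each count is uncertain. Hspa1b had 14.6, 17.8, 16.0 and 20.2 CPM in Zelnorm libraries, against 8.72, 16.2 and 16.0 CPM in NC libraries, a log2 fold change of 0.33 ± 0.20 (edgeR adjusted p = 0.621). When both genes were summed, an alternative chosen after seeing the data, values were 16.6, 21.1, 18.1 and 22.8 CPM in Zelnorm and 9.48, 17.5 and 17.9 CPM in NC libraries. The summed log2 fold change was 0.40 ± 0.20 (edgeR adjusted p = 0.540), and the groups overlapped.

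Hsph1, an Hsp110 exchange factor, had 246, 232, 246 and 239.5 CPM in Zelnorm libraries, against 164, 249 and 194 CPM in NC libraries. The Zelnorm libraries were alike and the NC libraries scattered, and NC_6 exceeded all Zelnorm libraries. The log2 fold change was 0.25 ± 0.11 (edgeR adjusted p = 0.477), and 0.12 without NC_5. The other Hsp110 genes were Hspa4, with log2 fold change -0.021 ± 0.056, and Hspa4l, with 0.11 ± 0.11.

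Small heat shock genes among the members were mostly low. Cryab, a small heat shock gene that the name rule does not match, is not among them. It averaged 196 CPM in Zelnorm and 171 CPM in NC libraries. Of 7 members, 6 were tested, with 5 higher in Zelnorm and 1 lower and a median log2 fold change of 0.23. Hspb1 (Hsp25 in mice), an abundant small heat shock protein in many stressed cells, had 4.95, 7.58, 6.47 and 10.9 CPM in Zelnorm libraries, against 4.22, 4.51 and 5.92 CPM in NC libraries. It was highest in MBZ_15, with log2 fold change 0.61 ± 0.26 (edgeR adjusted p = 0.445). Hspb8, which works with Bag3 to send misfolded clients to autophagy, had 25.6, 27.5, 22.5 and 32.5 CPM in Zelnorm libraries, against 22.5, 23.9 and 18.9 CPM in NC libraries, a log2 fold change of 0.31 ± 0.13 (edgeR adjusted p = 0.439). Without MBZ_15, Hspb1 was 0.37 and Hspb8 0.20.

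Hspb7, a small heat shock protein best known from heart and skeletal muscle, had the largest estimate, 1.45 ± 0.75 (edgeR adjusted p = 0.550). Its values were 1.04, 1.78, 0.619 and 5.69 CPM in Zelnorm libraries, against 1.57, 0.390 and 0.556 CPM in NC libraries. The 3 libraries highest in Hspb7 were also the 3 highest in skeletal muscle markers, MBZ_15 (389.6 CPM summed), MBZ_11 (147 CPM) and NC_5 (44.7 CPM), against 6.27 to 19.8 CPM in the other 4. Of the 12 muscle markers, 11 were tested and all 11 were higher in Zelnorm, with a median log2 fold change of 2.93, and Myh1, Myh4, Myh2 and Pvalb were at 0 in NC_6 and NC_10. Tnnt3 was also at 0 in NC_6, Myh2 in MBZ_9 and Pvalb in MBZ_13. With the summed muscle level as a covariate, the Hspb7 estimate was 0.0012, and without MBZ_15 it was 0.44. With the same covariate, Hspb1 was 0.34 and Hspb8 0.14, against 0.61 and 0.31 without it. The libraries highest in muscle markers, MBZ_15 and MBZ_11, are both Zelnorm libraries, so this covariate partly follows the group. An effect of muscle RNA and one of the group cannot be fully told apart by this fit, and the part of muscle RNA was not tested. All 11 pan-leukocyte markers were also higher in Zelnorm, with a median log2 fold change of 0.71, and with their summed level as a covariate Hspa1a was 0.36 and Hspb1 0.20. That level was 726 to 1021 CPM in Zelnorm and 573 to 791 CPM in NC libraries, so this covariate largely follows the group. An effect of leukocyte RNA and one of the group therefore cannot be told apart by this fit. All 7 fibroblast markers were higher too, with a median log2 fold change of 0.56. Dcn and Lum lay above all NC libraries (28.6% of 7, against 5.33% of all genes), and the others overlapped. In NC_10 the fibroblast sum was 1771 CPM, above 1212, 1471 and 1484 CPM in MBZ_9, MBZ_11 and MBZ_13. It was highest in MBZ_15 (2412 CPM), also the highest library in Hspb1, Hspb7 and Hspb8, and no fit used it. The part of fibroblast RNA in these values was not tested.

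**Figure D2:**
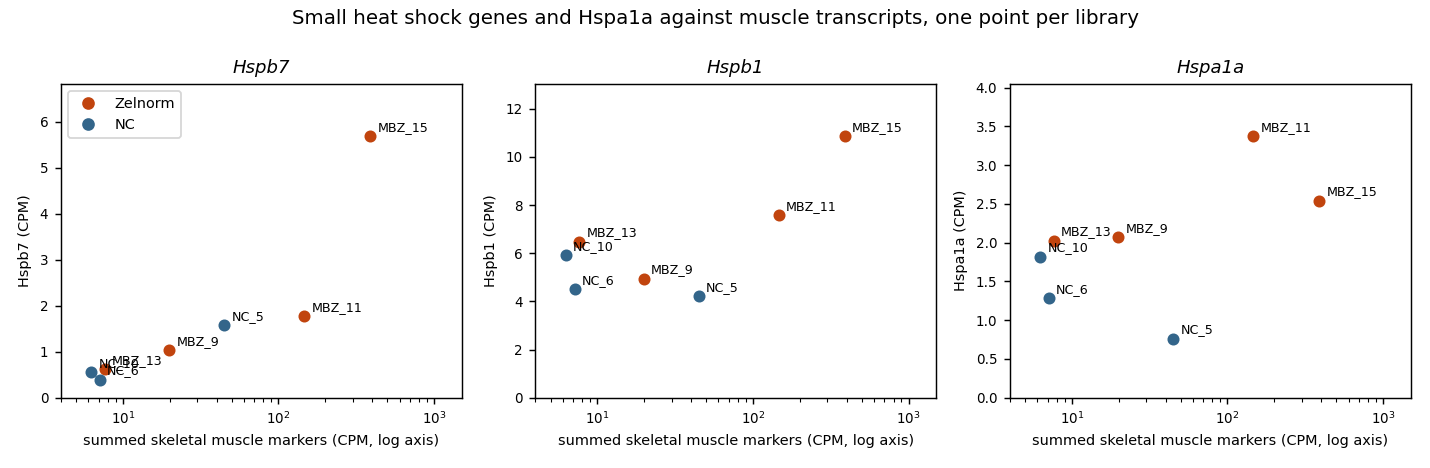
CPM of Hspb7, Hspb1 and Hspa1a (vertical axes, linear from 0) against the summed CPM of 12 skeletal muscle markers (horizontal axis, log scale), 1 point per library, for 4 Zelnorm and 3 NC libraries. Hspb7 and Hspb1 are highest in MBZ_15, which has the most muscle transcripts (389.6 CPM), while Hspa1a is highest in MBZ_11.

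Among cytosolic J proteins, Dnajb4, an Hsp40 that pairs with Hspa8, did not overlap between groups: 18.9, 21.1, 19.5 and 21.1 CPM in Zelnorm libraries, against 14.6, 17.3 and 17.4 CPM in NC libraries. Dnajb4 spans chr3:152178511-152210302, minus strand (GRCm38). Its log2 fold change was 0.29 ± 0.09 (edgeR adjusted p = 0.300). Dnajb1, the main heat-inducible Hsp40, had 57.6, 66.7, 63.2 and 73.2 CPM in Zelnorm libraries, against 57.6, 55.4 and 59.7 CPM in NC libraries, a log2 fold change of 0.18 ± 0.08 (edgeR adjusted p = 0.483). It was 0.11 without MBZ_15, 0.10 with the muscle covariate and 0.066 with the leukocyte covariate, and Dnajb4 was 0.14 without the 3 muscle-rich libraries. Dnaja1, an abundant partner of Hspa8, had 305, 321, 350.0 and 308 CPM in Zelnorm libraries, against 259.7, 342 and 289 CPM in NC libraries, with log2 fold change 0.11 ± 0.09. The lowest estimate in the cytosol was Dnajc12, a partner of the aromatic amino acid hydroxylases, at -0.21 ± 0.35, with 1.38, 0.592, 0.957 and 1.37 CPM in Zelnorm and 1.19, 1.28 and 1.26 CPM in NC libraries. Dnajc24, which helps make diphthamide on elongation factor 2, was lower in all Zelnorm libraries, 9.84 CPM on average against 10.98 in NC, and is named because of that order, seen after its values.

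**Figure D3:**
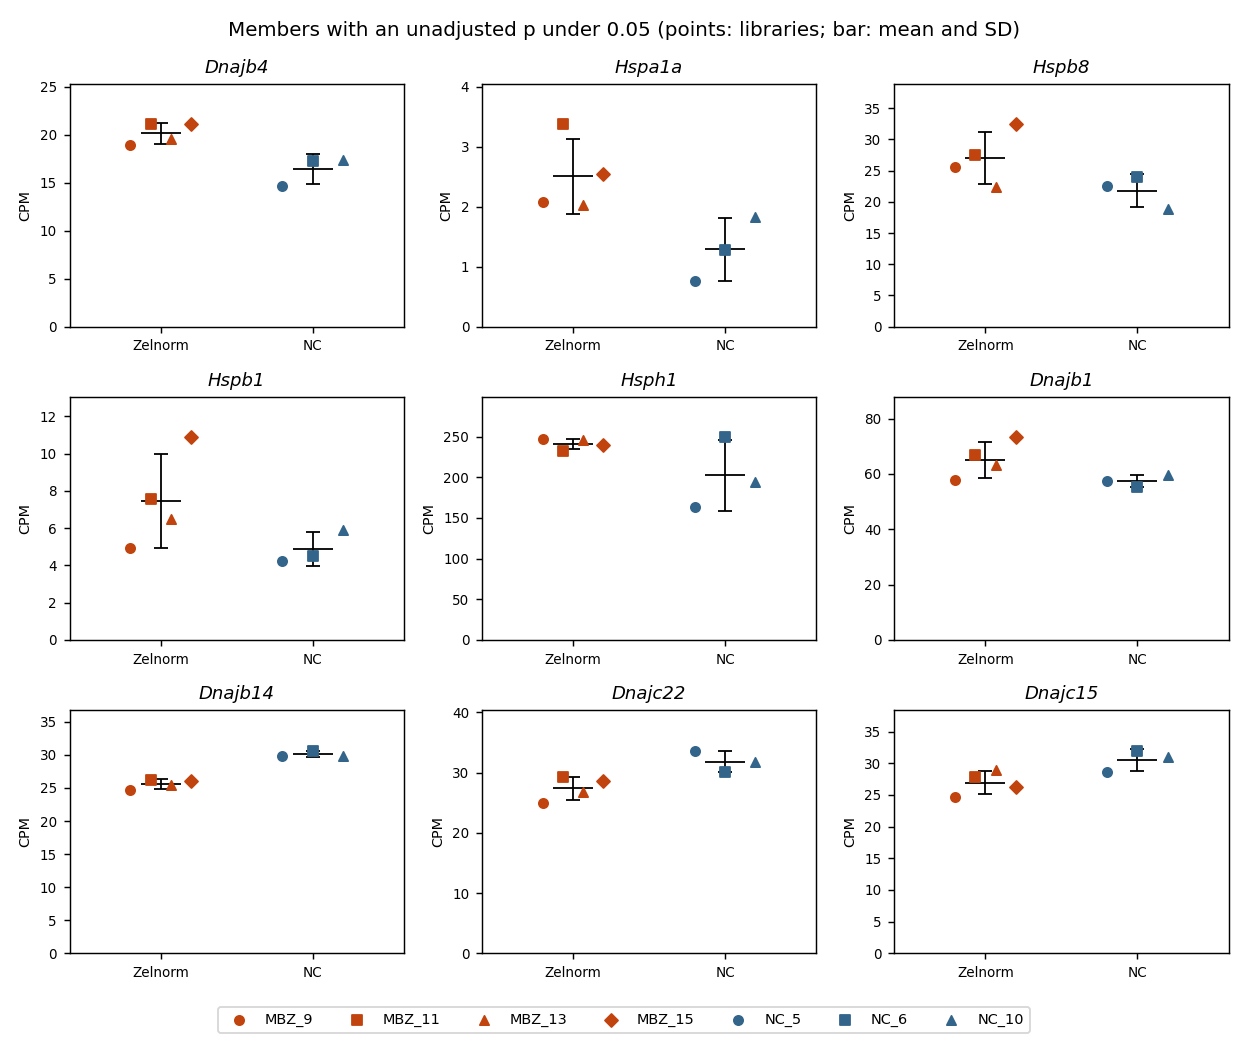
CPM (vertical axes, from 0) of the 9 members with an unadjusted edgeR p under 0.05 in 4 Zelnorm and 3 NC libraries; points are libraries, and the bar and whiskers are the mean and SD. For Dnajb4 and Hspa1a the Zelnorm points all lie above the NC points, and for Dnajb14 and Dnajc22 all lie below.

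Of 14 tested members with a pair of heat shock units in the window, 11 were higher in Zelnorm and 3 lower, with a median log2 fold change of 0.20, and 5 were higher at an unadjusted p under 0.05 (Hspa1a, Dnajb4, Hsph1, Hspb1 and Hspb8), where 6.94% of all genes were. That share is of all genes, with or without the pair. With the leukocyte covariate, Hsph1 alone of these 5 kept an unadjusted p under 0.05. With the muscle covariate Dnajb4 and Hsph1 kept it, and without the 3 muscle-rich libraries none did. Of 39 without the pair, 21 were higher and 18 lower, with a median of 0.027, and 1 was higher at that p (Dnajb1). Most tested members with the pair were cytosolic, and Dnajc10 was the only ER gene among them, so motif and compartment are mixed here. Hspd1 and Hspe1, which share a promoter region, and the near copies Hspa1a and Hspa1b were each counted as separate members. These counts describe the members, and the difference between them was not tested. They leave out the members whose windows were not used, among them Hsp90aa1, Hspa8 and Hsp90ab1.

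In the ER, both large chaperones overlapped between groups. Hspa5, the ER Hsp70, had 1252, 1258, 1404 and 1411 CPM in Zelnorm libraries, against 1125, 1298 and 1302 CPM in NC libraries, with log2 fold change 0.10 ± 0.07. Hsp90b1, the ER Hsp90, had 1132, 1228, 1442 and 1437 CPM in Zelnorm libraries, against 1092, 1341 and 1329.8 CPM in NC libraries, with log2 fold change 0.063 ± 0.101. Dnajb9 (ERdj4), which is induced by XBP1, had 21.7, 20.02, 22.7 and 25.95 CPM in Zelnorm libraries, against 21.6, 24.5 and 23.0 CPM in NC libraries. Dnajb11 (ERdj3) had 189, 205, 208 and 198 CPM in Zelnorm libraries, against 195.9, 195.8 and 199.95 CPM in NC libraries. Dnajc3 (p58IPK), an inhibitor of the eIF2alpha kinases, had 192, 197.5, 213 and 211 CPM in Zelnorm libraries, against 187, 219 and 211 CPM in NC libraries. Their log2 fold changes were -0.024 ± 0.098, 0.020 ± 0.051 and -0.016 ± 0.067, all within the error.

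Dnajb14, an ER membrane J protein that turns its J domain to the cytosol, had the smallest unadjusted p of all members. Its values were 24.6, 26.2, 25.4 and 26.1 CPM in Zelnorm libraries, against 29.9, 30.6 and 29.9 CPM in NC libraries. The libraries of each group were alike, with a pooled SD of 0.034 on the log2 scale, and the groups did not overlap, with log2 fold change -0.24 ± 0.06 (edgeR adjusted p = 0.229). Dnajb12, a similar ER membrane J protein, had -0.15 ± 0.08. An exon of Gm15460 on the same strand and of Gm25920 on the other overlap Dnajb14, on chr3:137867675-137916557, plus strand (GRCm38). Dnajc18, with the largest estimate in the ER, had 32.9, 31.3, 38.9 and 32.2 CPM in Zelnorm libraries, against 28.5, 32.5 and 28.3 CPM in NC libraries, with log2 fold change 0.19 ± 0.09. It was 0.11 without MBZ_13, 0.27 with the muscle covariate and 0.38 with the leukocyte covariate.

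In mitochondria, Hspd1 had 1535, 1473, 1569 and 1440.2 CPM in Zelnorm libraries, against 1336, 1532 and 1466 CPM in NC libraries. Its partner Hspe1, read from the same promoter region on the other strand, had 278, 352, 384 and 328.5 CPM in Zelnorm libraries, against 316, 335 and 381 CPM in NC libraries. Hspa9, the mitochondrial Hsp70, had 518, 528, 539 and 578 CPM in Zelnorm libraries, against 555, 569 and 555 CPM in NC libraries. Log2 fold changes were 0.058 ± 0.061 for Hspd1, -0.036 ± 0.102 for Hspe1 and -0.049 ± 0.053 for Hspa9, with all groups overlapping. Exons of Hspd1 and Hspe1 overlap each other on opposite strands in GENCODE M21. Dnaja3, a J protein of the matrix, had 75.6, 69.4, 73.5 and 77.8 CPM in Zelnorm libraries, against 67.00, 71.9 and 72.2 CPM in NC libraries, with log2 fold change 0.074 ± 0.062. Dnajc15, an inner membrane J protein that limits respiratory chain activity, had 24.7, 27.8, 28.9 and 26.3 CPM in Zelnorm libraries, against 28.7, 31.97 and 31.05 CPM in NC libraries, with log2 fold change -0.18 ± 0.08 (edgeR adjusted p = 0.456). Dnajc4 had the lowest estimate, -0.19 ± 0.12, with 12.4, 11.7, 10.5 and 10.8 CPM in Zelnorm libraries, against 15.1, 11.4 and 12.4 CPM in NC libraries.

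**Figure D4:**
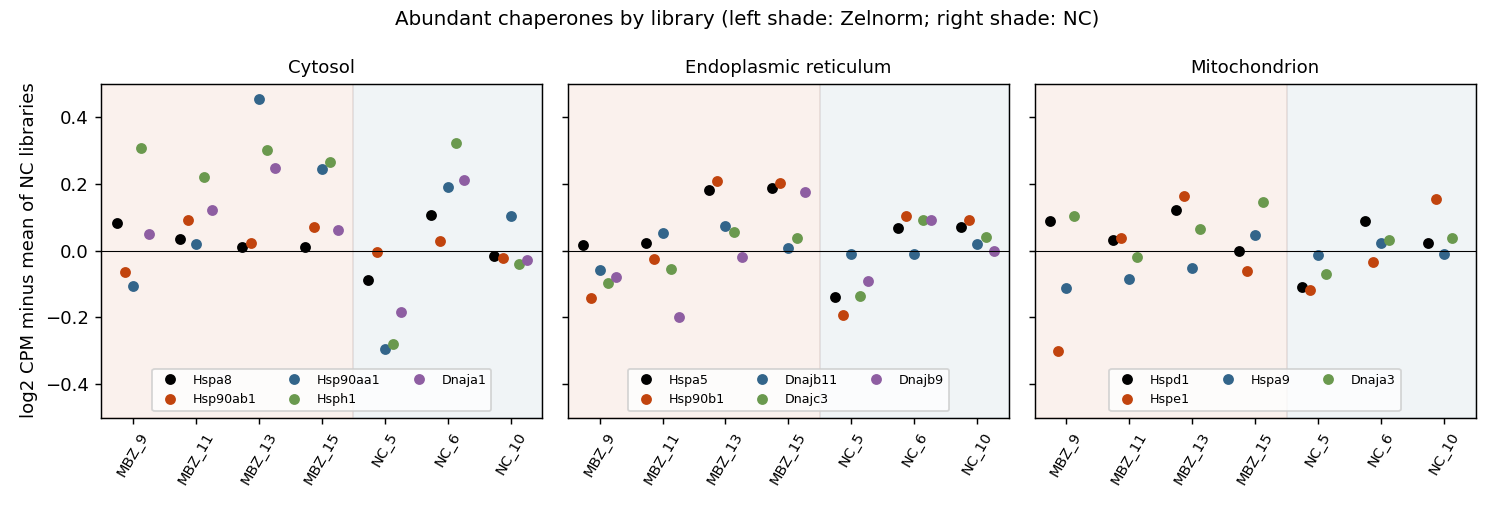
Log2 CPM minus the mean of the 3 NC libraries (vertical axis) for abundant cytosolic, ER and mitochondrial members in each of 4 Zelnorm and 3 NC libraries (horizontal axis). NC_5 lies low for most cytosolic and ER members shown, and Hsp90aa1 spreads most.

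Of the 8 members of other or uncertain sites, 5 were higher and 3 lower. Dnajc22, whose fly relative acts in clathrin-mediated endocytosis, was lower in all Zelnorm libraries: 24.9, 29.3, 26.8 and 28.5 CPM in Zelnorm libraries, against 33.6, 30.1 and 31.8 CPM in NC libraries, with log2 fold change -0.22 ± 0.08 (edgeR adjusted p = 0.373). Dnajb13, a protein of sperm flagella and cilia, had 5.58, 7.28, 4.84 and 7.11 CPM in Zelnorm libraries, against 4.01, 7.18 and 4.45 CPM in NC libraries, with log2 fold change 0.25 ± 0.24.

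Single libraries were extreme in many members. NC_5 was the lowest of the 7 libraries in 22 of 66 members, and MBZ_9 in 18, among them 5 of 9 mitochondrial genes. MBZ_13 and MBZ_15 were the highest in 14 members each, NC_6 in 13 and NC_5 in 11. The same counts over all genes were not taken. The median deviation from the NC mean over cytosolic members was 0.037, 0.069, 0.065 and 0.096 in Zelnorm libraries, and -0.045, 0.028 and -0.00071 in NC libraries, on the log2 scale. Over mitochondrial members it was -0.112, -0.036, -0.053 and -0.061 in Zelnorm libraries, and -0.070, 0.020 and 0.023 in NC libraries. Without NC_5 the count of members higher at an unadjusted p under 0.05 was 2, without MBZ_11 it was 1, and without the 3 libraries richest in muscle markers it was 0. Genes at that p in either direction fell over the whole table too. They numbered 1341 in the main fit, 977 without NC_5, 1009 without MBZ_11 and 547 without those 3 libraries. Without NC_5 the estimate was 0.021 for Hsp90aa1, 0.024 for Dnaja1, 0.090 for Hspa1b, 0.033 for Hspa5 and -0.072 for Dnajc4. Under all of these Dnajb14 stayed lower in Zelnorm.

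Partner genes outside the family were counted with the same edgeR fit, and none passed an adjusted p of 0.05. Of 25 cytosolic cofactors and HSF genes, 14 were higher and 11 lower in Zelnorm, with a median log2 fold change of 0.019, and 2 were higher at an unadjusted p under 0.05 (8%, against 6.94% of all genes). These were Bag3, the Hspb8 partner, at 0.19 ± 0.06 (edgeR adjusted p = 0.337), and Cryab, a small heat shock protein, at 0.20 ± 0.08 (edgeR adjusted p = 0.420). Hsf1, the heat shock factor itself, was 0.075 ± 0.057. Of 14 genes of the CCT chaperonin and prefoldin, which fold actin and tubulin, 4 were higher and 10 lower, with a median of -0.030. At an unadjusted p under 0.05, 1 was lower (7.14%, against 3.38% of all genes): Tcp1 (CCT1), at -0.12 ± 0.05 (edgeR adjusted p = 0.425). Of 28 genes of ER folding and the unfolded protein response, 20 were higher and 8 lower, with a median of 0.073 and none at an unadjusted p under 0.05. Xbp1 was -0.15 ± 0.07 and Ddit3 0.11 ± 0.09, and Hyou1 was 0.086 ± 0.090. Of 16 mitochondrial cofactors and proteases, 9 were higher and 7 lower, with a median of 0.014, and Trap1, the mitochondrial Hsp90, was 0.017 ± 0.050 and Lonp1, a protease, -0.076 ± 0.071.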

How the data were processed

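The authors deposited a table of raw counts of reads per gene, with 1 column per library, from TruSeq Stranded mRNA libraries per the labels' protocols. Trimmomatic, HISAT2, Cufflinks, HTSeq and DESeq, and the builds GRCh38 and GRCm38, are named in the submitters' processing notes. For versions, roles and the strand setting: not given in the sources used here. Columns were assigned to groups by their prefix and carry none of the titles' replicate numbers.

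Genes were filtered with filterByExpr, libraries scaled by TMM, and Zelnorm compared with NC over all 12997 genes by edgeR 4.0.16 (R 4.3.3) quasi-likelihood tests with Benjamini-Hochberg adjustment at 0.05. The common coefficient of biological variation was 0.111. SEs were derived from the F statistic. CPM used TMM-scaled library sizes. Every pair of libraries differed by more than sampling noise (chi-square per degree of freedom 6.53 to 20.9).

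The members, compartments and gene lists were chosen with earlier results of these data known. Named by rule were 18 chaperones whatever their test, each further member with an unadjusted p under 0.05, and the largest positive and negative estimate of each compartment. Cofactors were named at an unadjusted p under 0.05, plus 6 genes whatever their test. Dnajc24, some other members and the markers were named outside this rule, after their values were seen. Alternatives used RLE and upper quartile scaling, a filter of 10 counts, DESeq2 1.42.0, limma 3.58.1 voom, covariates for muscle and leukocyte markers, and left-out libraries. Gene spans and exon lengths are from GENCODE M21. Figures were drawn with matplotlib 3.10.9. The tests were tried on simulated data first.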

Additional observations from a re-analysis of the deposited data

Results flagged for a closer look

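The summed CPM of the 9 mitochondrial members in Zelnorm library MBZ_13 was 2733, above the other 3 Zelnorm libraries at 2568, 2596 and 2590.4, while the NC libraries had 2457, 2684 and 2658. The gap to the nearest Zelnorm library was a share of 0.83 of the group's range, just past Dixon's 95% limit for 4 libraries. MBZ_13 was also the highest of all 7 libraries. Among 28 named members and 15 summed lists examined in this way, it was the 1 value that stood apart, and chance flags about 1 in 20 groups. No cause was tested.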

How the results depend on the processing

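No member passed an adjusted p of 0.05 in edgeR, DESeq2, limma voom or any of the 15 alternatives, and the smallest adjusted p was 0.131 (Hsph1, edgeR without NC_6). Over all genes, 206 of 16920 passed in DESeq2 and 161 of 13111 in edgeR without NC_10. Each of the other fits called 0 to 33 genes. The count of members higher at an unadjusted p under 0.05, 6 as reported, was 3 with the muscle covariate (Dnajb4 and Hsph1 of the 6, plus Dnajc18) and 4 with the leukocyte covariate (Hsph1 of the 6, plus Dnajc1, Dnajc18 and Hspa2). It was 0 without the 3 libraries with the most muscle markers, and 1 to 7 when 1 library was left out. Over all genes, those at that p in either direction were 1341 as reported, 1220 with the muscle covariate and 943 with the leukocyte covariate. They were 547 without the 3 muscle-rich libraries and 977 to 1455 when 1 was left out. The count of members lower, 3 as reported, was 2 or 3 in all alternatives. The cytosolic median of 0.042 was 0.012 without the 3 muscle-rich libraries and 0.031 to 0.086 when 1 was left out. The ER median lay between -0.067 and 0.013 and the mitochondrial median between -0.11 and -0.046. Dnajb14 had a p under 0.05 in 15 of 15 alternatives, Dnajb4 and Dnajc22 in 13, Hspa1a in 9, Hspb8 in 8, Hspb1, Hsph1 and Dnajc15 in 7, and Dnajb1 in 1. These genes were picked by that p in the main fit, and the alternatives reuse the same libraries, so these tallies are not independent evidence. Signs turned for 9 named members. Values were Dnajc3 0.014 and Hspe1 0.011 with the muscle covariate, and Dnajb9 0.025 and Dnajc3 0.012 with the leukocyte covariate. Without the 3 muscle-rich libraries Hspa8 was -0.0045, Hspa1b -0.081, Hsp90ab1 -0.028, Hsp90b1 -0.059, Dnajb11 -0.0015 and Dnajb13 -0.16. With 1 library left out, Dnajc3 lay between -0.081 and 0.022, Hspe1 between -0.11 and 0.045, Dnajb9 between -0.10 and 0.026, Hspa8 between -0.011 and 0.079, and Hsp90b1 between -0.028 and 0.12. The causes were not tested. Depth limits members with few counts over all libraries: Dnajc5b (10), Hspb3 (22), Hspb9 (66), Dnajc6 (106), Dnaja4 (135), Hspa12a (137), Hspa1l (141), Dnajc12 (148), Hspb7 (218) and Hspa1a (252). No paired analysis was possible because the table's columns do not show the titles' replicate numbers.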
